A study of Oryza sativa with 3 samples.

Results

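Fragments of tRNA-Cys, the tRNA that carries cysteine to the ribosome, were examined among small RNAs of rice (Oryza sativa) spores at 3 stages of male gametophyte development. They were taken as the listed sequences labelled with anticodon GCA or ACA, which read the cysteine codons. These are 528 of the 18424 distinct sequences in the 3 lists together: 204 of 5477 in uninucleate microspores (UNM), 395 of 14717 in bicellular pollen (BCP) and 261 of 8633 in tricellular pollen (TCP). Spores of field-grown plants of the cultivar Guichao No.2 were purified on a sucrose gradient. There is 1 library per stage, no mutant or treated group, and the labels do not say whether plants were pooled. UNM spores have a single nucleus, BCP grains hold a vegetative and a generative cell, and TCP grains hold the vegetative cell with a pair of sperm cells. The lists hold tRNA fragments alone, so the stage labels could not be checked against marker genes.

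The UNM list holds 686685 reads and the BCP list 4958412, 7.22 times as many. Shares below are percentages of these totals unless another base is named. Values in parentheses are exact 95% intervals, which cover counting error only. With 1 library per stage no difference has a replicate check and no test between stages was made. A share cannot tell more of a fragment from less of the others, and in whole spores fewer cells of a type and less RNA per cell cannot be told apart. A fragment or group is called higher or lower when its share differs at least 2-fold between BCP and UNM and the interval of the ratio excludes 1. The numbers in the TCP list reach only 28 and were not taken as reads, so TCP enters by presence.

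Mature tRNAs fold into an acceptor stem, a D arm, an anticodon arm and a T arm. Cuts in the anticodon loop split a tRNA into long 5′ and 3′ pieces, and cuts in the D loop give short 5′ fragments. Plant cells make tRNAs in the nucleus, in mitochondria and in plastids, and plastid tRNA-Cys is the product of trnC-GCA. In Arabidopsis pollen, short 5′ tRNA fragments are known to be abundant. Rice assembly ASM3414082v1 in RefSeq has 13 nuclear genes for tRNA-Cys with anticodon GCA and 1 with ACA.

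Almost all tRNA-Cys reads came from the 5′ part of 3 parent sequences, and the fragments that carry the results are printed here. Each is shown 5′ to 3′ in DNA letters as deposited. Bases are counted from 1 at the first base of the 5′ fragments. Capitals mark base 26 in the nuclear type and the anticodon, bases 33 to 35, as far as a fragment reaches it. The nuclear parents are called the A form and the T form. They differ by A26T alone over the 35 bases that both cover, and the rest of these tRNAs was not compared.
nuclear A form, bases 1 to 33: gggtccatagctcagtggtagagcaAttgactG
nuclear T form, bases 1 to 33: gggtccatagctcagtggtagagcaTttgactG
nuclear T form, bases 1 to 30: gggtccatagctcagtggtagagcaTttga
nuclear A form, bases 12 to 30: tcagtggtagagcaAttga
nuclear T form, bases 12 to 32: tcagtggtagagcaTttgact
nuclear T form, bases 15 to 32: gtggtagagcaTttgact
nuclear A form, bases 19 to 33: tagagcaAttgactG
plastid type, bases 1 to 19: ggcggcatggccaagcggt
plastid type, bases 1 to 33: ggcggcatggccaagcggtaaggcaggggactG
The names nuclear and plastid type rest on general knowledge of these tRNAs. No genome was used, and copies of the plastid gene elsewhere in the cell cannot be told apart from it.

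As a group, tRNA-Cys fragments held nearly the same share of both libraries. They had 3668 reads in UNM, 0.534% (0.517 to 0.552), and 28836 in BCP, 0.582% (0.575 to 0.588), a ratio of 1.09 (1.05 to 1.13). By share they ranked at position 13 of the 20 amino acids in UNM and 14 in BCP. Inside this total the types and lengths shifted. Plastid-type fragments went from 36.3% of tRNA-Cys reads (34.8 to 37.9) to 11.8% (11.4 to 12.2), and nuclear fragments from 62.8% to 88.0%. The Asp fragments, 1.23% of UNM and 36.3% of BCP reads, enter the totals that all shares are taken of. Leaving them out of the totals raises every log2 ratio by 0.63, and that of tRNA-Cys then gave 1.69-fold.

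The anticodon label differed between lists for 5 of the 528 sequences, and these were left out of the counts that follow. The most read of them is a 29-nt sequence with 112 reads in BCP. It is labelled ACG, an arginine anticodon, in UNM and BCP and ACA in TCP alone. Another has 13 nt and 84 reads in UNM under AAC, a valine anticodon, and 4 in BCP under GCA. ACA labels 6 rows in all, and 3 of these belong to such sequences. The other 3 hold 3 reads in UNM and none in BCP. Among the sequences kept, a 14-nt one with 2 UNM reads and a 19-nt one with 1 lie within that 29-nt sequence. Whether they come from the same tRNA was not tested. The remaining 523 sequences have 3666 reads in UNM and 28831 in BCP.

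Of these, 312 sequences were placed on the nuclear parents, with 2302 reads in UNM and 25360 in BCP. On the plastid-type parent lie 129 sequences, with 1332 and 3399 reads. The last 82 were not placed and hold only 32 and 72 reads, 0.873% and 0.250% of the group. They include fragments of the 3′ side. Reads with the T-arm motif TTCGA or TTCAA anywhere numbered 7 in UNM and 53 in BCP, 0.191% (0.0768 to 0.393) and 0.184% (0.138 to 0.240) of tRNA-Cys reads. A 3′ end in CCA, the tail added to mature tRNAs, was carried by 0 of 3666 UNM reads and by 1 BCP read. The upper limit for UNM is 0.000537% of that library. Whether the mapping reference held this tail is not given in the sources used here. The near absence of CCA ends therefore gives no level of such fragments. Most tRNA-Cys reads began at the first base of the tRNA, 68.7% (67.2 to 70.2) in UNM and 66.3% (65.8 to 66.9) in BCP. Nuclear fragments with an extra A before base 1 had 0 reads in UNM, with the same limit, and 14 in BCP, 0.000282% of it.

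The plastid-type fragments changed length between the stages. In UNM a single 19-nt fragment that ends in the D loop held 1058 of the 1332 reads and was the most abundant tRNA-Cys sequence of that library. In BCP it had 302 reads of a deeper library, a share 25.3-fold lower (22.2 to 28.8), and ranked at position 22 among tRNA-Cys sequences. Its neighbours of 20 and 18 nt went the same way. The 20-nt fragment had 135 reads in UNM against 49 in BCP, 19.9-fold lower (14.2 to 28.2). The 18-nt fragment had 59 and 39, 10.9-fold lower (7.17 to 16.8). These are 3 of the 5 largest falls among tRNA-Cys sequences with at least 50 summed reads.

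The long plastid-type fragments, which end in or just before the anticodon, were nearly unread in UNM and made up most of the type in BCP. The 32-nt fragment had 2 reads in UNM against 913 in BCP, 63.2-fold higher (17.5 to 523). The 33-nt fragment had 1 and 775, 107-fold higher (19.2 to 4245), the largest rise of a tRNA-Cys sequence with at least 50 summed reads. That of 34 nt had 4 and 418 reads, and that of 30 nt had 1 and 158, 21.9-fold higher (3.87 to 870). The 31-nt fragment had 0 reads in UNM, with an upper limit of 0.000537%, and 402 in BCP. With the 0 set to 3 counts it was 18.6-fold higher, and the interval of the ratio starts at 15.02. At 35 nt the 7 and 70 reads gave a ratio of 1.39 (0.638 to 3.57), which was not called. Summed, plastid-type reads from base 1 with at most 20 nt went from 1253 to 392, 23.1-fold lower (20.6 to 25.9). Those with at least 30 nt went from 15 to 2738, 25.3-fold higher (15.3 to 45.2).

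Within the plastid type, 95.05% of UNM reads (93.7 to 96.2) had at most 20 nt, against 13.9% of BCP reads (12.7 to 15.1). The share with at least 30 nt went from 1.35% (0.803 to 2.13) to 81.6% (80.2 to 82.8). The start moved little beside the length: 98.6% (97.8 to 99.1) and 94.8% (94.0 to 95.5) of plastid-type reads began at base 1. The plastid-type total was 2.83-fold lower in BCP (2.65 to 3.02), which sums these opposite shifts. It was 1.83-fold lower without Asp fragments and then no longer called, while the short class stayed 12.5-fold lower and the long class 33.1-fold higher. Opposite shifts of this kind were seen in other tRNAs too. Of 130 start families of any tRNA with at least 50 summed reads in both length classes, 33 (25.4%) were lower in the short and higher in the long class. The gap between the log2 ratios of the long and the short class was 9.19 for the plastid-type family, at position 5 of the 130, and the median gap was 2.67.

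Nuclear fragments that start at base 1 were long at both stages. At least 30 nt were found in 98.4% of such UNM reads (97.6 to 99.1) and in 95.1% of such BCP reads (94.7 to 95.4), so these fragments reach the anticodon loop or its stem. At most 20 nt occurred in 6 of 1206 and 16 of 15895 reads, where the plastid type had 1253 of 1313 and 392 of 3222. The nuclear 5′ fragments together went from 0.176% to 0.321% of all reads, 1.83-fold higher (1.72 to 1.94), which is under the 2-fold limit. Without Asp fragments the ratio was 2.83, past the limit.

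The 3′ ends of the nuclear 5′ fragments lay at a few bases. In UNM 61.1% of the reads from base 1 ended at base 33, the first anticodon base, 18.1% at base 32, 13.8% at base 30 and 4.73% at base 34. In BCP these were 41.2%, 10.4%, 28.6% and 14.2%. Base 31 was hardly used, with 0.498% and 0.409%. The plastid-type fragments of BCP did end at base 31, with 12.5% of the reads from base 1 there, 28.3% at base 32, 24.1% at base 33 and 13.0% at base 34. The 25-nt nuclear fragment, which stops short of the base that tells the forms apart, had 2 reads in UNM against 384 in BCP, 26.6-fold higher (7.31 to 220).

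Among reads from base 1, the A and T forms, which differ in 1 of the 35 bases compared, ended at different bases. Of the A form reads from base 1, 69.1% in UNM (66.0 to 72.0) and 61.6% in BCP (60.5 to 62.6) ended at base 33. Of the T form reads, 32.03% (26.1 to 38.5) and 20.3% (19.3 to 21.2) did. The T form ended more often at base 30, with 33.3% of reads in UNM (27.3 to 39.8) and 47.6% in BCP (46.4 to 48.7). For the A form base 30 had 9.38% (7.61 to 11.4) and 14.6% (13.9 to 15.4). At both bases the intervals of the 2 forms did not overlap, in either library. Fragments that start after base 1 went the other way in BCP. There the T form made up 25.4% of ends at base 30 (23.8 to 27.0) and 67.4% of ends at base 33 (64.4 to 70.2), against 48.9% over all ends.

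The T form gained on the A form in BCP, in fragments from base 1. Among reads from base 1 that reach base 26, the T form made up 19.4% in UNM (17.2 to 21.8) and 45.7% in BCP (44.9 to 46.5). T form reads from base 1 went from 231 to 7009, 4.20-fold higher (3.69 to 4.81), and A form reads from 960 to 8325, 1.20-fold (1.12 to 1.29). The intervals did not overlap at any of the 4 main ends. The T form went from 46.1% to 73.2% of fragments ending at base 30, from 27.5% to 58.0% at base 32, from 10.04% to 21.7% at base 33 and from 31.6% to 50.4% at base 34. In fragments that start after base 1, the T form had 50.3% in UNM (47.3 to 53.4) and 48.9% in BCP (47.9 to 49.96). This pooled value hides starts that did shift, since at base 12 the T form went from 20.5% (13.5 to 29.2) to 43.3% (41.8 to 44.7) and at base 15 from 54.3% (48.8 to 59.8) to 74.5% (70.2 to 78.5). How the lists treat reads with a mismatch is not given in the sources used here, and its part in the split of 2 forms that differ by 1 base was not tested.

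Single 5′ fragments showed the same split. The 33-nt A form led the nuclear fragments of both libraries, with 663 reads in UNM against 5127 in BCP, a ratio of 1.07 (0.988 to 1.16). The 33-nt T form had 74 and 1421 reads, 2.66-fold higher (2.10 to 3.41). At 30 nt the T form had 77 and 3334 reads, 5.996-fold higher (4.78 to 7.62), and was the second most abundant tRNA-Cys sequence of BCP. The 30-nt A form had 90 and 1219, 1.88-fold (1.51 to 2.35), which was not called. Without Asp fragments it was 2.91-fold and called higher. At 34 nt both forms were called higher. The T form had 18 and 1135 reads, 8.73-fold (5.50 to 14.8), and the A form 39 and 1115, 3.96-fold (2.88 to 5.60). At 32 nt the forms parted. The T form had 60 and 960 reads, 2.22-fold higher (1.71 to 2.93), and the A form 158 and 695, a ratio of 0.609 (0.512 to 0.729). That ratio lay close to 1 without Asp fragments, at a log2 ratio of -0.08.

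A second set of nuclear fragments starts inside the D arm and runs to the same 3′ ends. Where these fragments begin differed between the stages. Starts at bases 12 to 14 went from 9.64% of nuclear reads in UNM (8.47 to 10.9) to 29.8% in BCP (29.3 to 30.4). Starts at bases 15 to 19, a few bases further and within the D loop, went from 34.3% (32.4 to 36.3) to 4.57% (4.31 to 4.83). As shares of all reads the former set was 4.72-fold higher in BCP (4.13 to 5.42) and the latter 4.93-fold lower (4.49 to 5.40). Without Asp fragments these were 7.31-fold higher and 3.18-fold lower, so both kept their call. Starts at bases 2 to 11 were rare, with 37 reads in UNM against 704 in BCP, as were starts at base 20 or later, with 47 and 26.

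Of the 23 fragments from bases 12 to 14 with at least 50 summed reads, 19 were higher and 1 lower. That is 82.6% higher, against 68.2% of the sequences of all tRNAs. By length, 84.8% of all sequences of 21 to 29 nt were higher and 44.2% of those with at most 20 nt. The 23 fragments include both length classes, and their difference from these shares was not tested. Starts at base 12 held 4642 of the 7563 BCP reads. The 19-nt A form of bases 12 to 30 had 10 reads in UNM against 1376 in BCP, 19.1-fold higher (10.3 to 39.8), and ranked at position 4 among tRNA-Cys sequences of BCP. The 21-nt T form of bases 12 to 32 had 11 and 1210, 15.2-fold higher (8.48 to 30.6). The 18-nt A form of bases 13 to 30 had 3 and 440, 20.3-fold higher (6.90 to 98.9), among the 5 largest rises at the same minimum. The 20-nt A form of bases 13 to 32 had 15 and 500, 4.62-fold higher (2.77 to 8.31). The 19-nt fragments of bases 14 to 32 were also higher, the T form with 5 and 320 reads and the A form with 7 and 147.

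Of the 10 fragments from bases 15 to 19 with at least 50 summed reads, 7 were lower and 0 higher. Over all tRNAs 17.2% of sequences were lower, and of those with at most 20 nt 32.7% were lower and 44.2% higher. The 18-nt T form of bases 15 to 32 had 95 reads in UNM, position 5 among its tRNA-Cys sequences, and 187 in BCP, 3.67-fold lower (2.84 to 4.72). Its A form had 57 and 34, 12.1-fold lower (7.78 to 19.1), and the 19-nt T form of bases 15 to 33 had 28 and 37, 5.46-fold lower (3.22 to 9.17). These 2 complete the 5 largest falls at the minimum of 50 summed reads. Just under that minimum, the 15-nt A form of bases 19 to 33 was 81.2-fold lower (29.6 to 311). The 16-nt A form of bases 15 to 30, the leading fragment of its start, had 32 and 61 reads, 3.79-fold lower (2.39 to 5.90). The 17-nt fragments of bases 16 to 32 had 71 and 169 reads as T form, 3.03-fold lower (2.27 to 4.03), and 48 and 97 as A form, 3.57-fold lower (2.47 to 5.10). The T form one was at a log2 ratio of -0.97 without Asp fragments, which is no longer 2-fold.

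The 3′ ends of the D-arm fragments also differed. Of those from base 12, 35.4% of BCP reads ended at base 30 (34.02 to 36.8) and 44.9% at base 32. In UNM these ends had 12 reads (5.28 to 16.8%) and 39 reads (24.2 to 41.6%) of 120. The end at base 34 went the other way, from 48 of 120 reads (31.2 to 49.3%) to 3.15% (2.66 to 3.69). The 23-nt A form of bases 12 to 34, with 40 and 87 reads, was accordingly 3.32-fold lower (2.22 to 4.88) although it starts where most fragments were higher.

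Grouped by their first 13 bases, the 523 sequences fell into 101 families, of which 20 had at least 50 summed reads. Of these 20, 6 were called higher and 9 lower. Over the families of all tRNAs 58.5% were higher and 20.9% lower. The difference from this background was not tested. Without Asp fragments the split was 9 higher and 6 lower, with no share over all tRNAs at that setting beside it. The other 81 families had at most 33 summed reads each and together 2.76% of tRNA-Cys reads in UNM and 1.04% in BCP. Only 1 of the 20 families is of the plastid type, and the other 19 are nuclear families that overlap each other, shifted by a base or more, so they are not independent.

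The 6 higher families start at bases 6, 11, 12, 13 and 14, the last in both forms. That of base 12 had 120 and 4642 reads, 5.36-fold higher (4.47 to 6.48), and that of base 13 had 57 and 2103, 5.11-fold (3.93 to 6.77). At base 14 the T form had 26 and 482 reads, 2.57-fold higher (1.73 to 3.97), and the A form 19 and 336, 2.45-fold (1.54 to 4.12). At base 11 there were 9 and 282 reads, 4.34-fold higher (2.25 to 9.59), and at base 6 there were 8 and 184, 3.19-fold (1.58 to 7.49).

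The lower families were the plastid type and nuclear starts at bases 15 to 19. At base 15 the A form had 153 and 114 reads, 9.69-fold lower (7.56 to 12.5), and the T form 182 and 333, 3.95-fold (3.28 to 4.74). At base 16 the A form had 116 and 139 reads, 6.03-fold lower (4.67 to 7.77), and the T form 166 and 292, 4.11-fold (3.37 to 4.98). The T form at base 17 had 15 and 37 reads and the A form at base 18 had 15 and 49, 2.93-fold and 2.21-fold lower. At base 19 the A form had 64 and 6 reads, 77.02-fold lower (33.5 to 218), and the T form 52 and 7, 53.6-fold (24.3 to 140). The leading fragments of these last families have 15 nt and run from base 19 to 33, with 45 and 4 reads for the A form and 26 and 5 for the T form.

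The other 5 families were not called. These are the nuclear fragments from base 1 described above, the starts at bases 2, 3 and 4 with 9 and 117, 7 and 46, and 4 and 75 reads, and the T form at base 18 with 24 and 169. Their ratios lay between 0.910 and 2.60. The call of the plastid-type family was lost without Asp fragments, at 1.90-fold lower, as were those of the T form at base 17 and the A form at base 18. The families of bases 1, 2 and 4 were then higher.

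Of the 523 sequences, 56 had at least 50 summed reads. Among them 35 were higher and 11 lower, 62.5% and 19.6%, against 68.2% and 17.2% of the 1794 sequences of all tRNAs with that depth. The median log2 ratio was 1.98, against 2.01 over all. A sequence with 0 reads or 1 read in UNM could only be higher at this minimum. Of the 56, 5 had 0 reads in UNM. Others had 1 read there, among them the 33-nt plastid-type fragment with the largest rise and the 30-nt one. Of 14 sequences of at least 30 nt 10 were higher and 0 lower, beside 482 and 15 of 521 over all tRNAs. Of 27 with at most 20 nt, 13 were higher and 10 lower, beside 367 and 272 of 831. With the BCP reads thinned to the UNM total, 18 of 28 tRNA-Cys sequences were higher and 8 lower. No share over all tRNAs is given for that setting, so these counts have no background.

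Length summed over the whole group moved with these shifts. In UNM the most frequent lengths were 19 nt, with 32.2% of tRNA-Cys reads, and 33 nt, with 20.1%. In BCP they were 33 nt with 25.4% and 30 nt with 16.4%, and 19 nt had 8.92%. Reads of at least 30 nt went from 33.1% (31.6 to 34.6) to 62.4% (61.9 to 63.0), and those of at most 20 nt from 59.98% (58.4 to 61.6) to 21.2% (20.8 to 21.7). The long share was higher in BCP than in UNM for each of the 20 amino acids, so this direction is not particular to tRNA-Cys. Ala had 0.0377% and 1.96%, and Leu had 6.45% and 85.1%. Among the 20 amino acids tRNA-Cys held position 2 in UNM and 6 in BCP by its share of long reads. In the nuclear type alone the long share went from 51.9% (49.8 to 54.0) to 59.9% (59.3 to 60.5), and in the plastid type from 1.35% to 81.6%. The 10 most abundant sequences held 67.7% of tRNA-Cys reads in UNM and 61.8% in BCP, and 5 were among the 10 in both.

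The TCP list was compared by presence. It holds 259 of the 523 sequences, 182 of which (70.3%) are also in UNM or BCP, and 102 of which are in all 3 lists. Over all tRNAs 75.1% of TCP sequences are in UNM or BCP. In reverse, TCP lists 112 of 203 UNM sequences (55.2%) and 172 of 393 BCP sequences (43.8%), close to 54.96% and 41.9% over all tRNAs. Of the 56 sequences with at least 50 summed reads, TCP lists 52 (92.9%), against 91.2% over all.

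Both length classes of the plastid type are listed in TCP. The 22 plastid-type sequences in the TCP list that start at base 1 span 16 to 37 nt without a gap, and they include the 19-nt fragment of UNM and the long fragments of BCP. For the nuclear 5′ fragments, TCP lists 18 of 18 UNM sequences and 27 of 29 BCP sequences. Of the D-arm fragments that start at bases 12 to 14, it lists 24 of 34 UNM and 33 of 60 BCP sequences. The 4 well-read sequences that TCP does not list are all nuclear. They are the 20-nt T form of bases 11 to 30 with 1 and 93 reads, the 18-nt A and T forms of bases 12 to 29 with 3 and 81 and with 1 and 57, and the 23-nt T form of bases 12 to 34 with 8 and 59. TCP alone lists 77 sequences, 21 nuclear, 34 plastid-type and 22 unplaced. Its depth is not known, so absence from it gives no level.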

How the data were processed

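Small RNA libraries of 3 stages, 1 each, were deposited as lists of 3 columns, anticodon, sequence and count, per the file headers. The count the authors deposited gives, for UNM and BCP, the reads of each sequence in whole numbers, without normalization. Bowtie 1.1.2 was among the tools, per the submitters' processing notes. Which reference, trimming and mismatches were used: not given in the sources used here. The TCP numbers were used for presence only.

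Sequences were joined by exact identity. Shares have Clopper-Pearson intervals and ratios exact conditional binomial intervals (95%). A count of 0 was set to 3 for a ratio. No molecular identifiers are described, so reads need not be independent molecules. Named sequences are the 10 most abundant of each library, the leading one of each family with at least 50 summed reads, and the 5 largest rises and falls among those with at least 50. Other sequences in the text were chosen after their values were seen. Members and lists were chosen with earlier results of these data known. Placement on parents was added after the data were seen. The parents are the longest listed sequences of the 2 most read families that begin with GG, for the nuclear type the longest of each form. A fragment was placed where it lies in a parent, or runs past its end after at least 10 matching bases, or matches from base 1 after 1 extra 5′ base. Alternatives are given below. Python 3.11.15, numpy 2.4.6, pandas 2.3.3 and scipy 1.17.1 were used.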

Additional observations from a re-analysis of the deposited data

How the results depend on the processing

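With 1 library per stage no replicate could be left out, and the depth of UNM limits what was seen there, since 3 reads are 0.000437% of that library. No paired analysis was possible because each stage has 1 library. The log2 ratio of the tRNA-Cys share, 0.12, was 0.75 without Asp fragments, 0.20 with sequences of at most 33 nt, 0.18 with those of at least 10 reads in a library, -0.46 without the most abundant family and -0.47 by distinct sequences. Without the 19-nt plastid-type fragment, an alternative chosen after seeing the data, it was 0.60. The log2 ratio of the long share within tRNA-Cys, 0.92, was 4.40 without the most abundant family, 0.44 without the 19-nt fragment and 0.67 by distinct sequences. With families by the first 16 bases, 9 of 19 were higher and 5 lower, in place of 6 and 9 of 20, so the balance of calls turned round. Of single sequences, 19 of 25 were higher and 3 lower with a minimum of 200 summed reads. With a minimum of 20, 36 of 98 were higher and 21 lower. With BCP thinned, 18 of 28 were higher and 8 lower. Shares over all tRNAs are not given for these alternative counts of families and sequences. For the tRNA-Cys share, leaving out only the 5 tRNA-Cys sequences with differing labels, at unchanged totals, gave 0.12. A minimum of 13 nt gave 0.12 and the setting without any sequence whose label differs between lists gave 0.14, both within the interval of that share's ratio. Neither setting could change the long share within tRNA-Cys. All tRNA-Cys sequences have at least 13 nt, and those with differing labels were already left out of it. Of 35 named sequences read in both libraries, 33 kept the direction without Asp fragments, and 26 of 28 that differed 2-fold still did.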

Other observations

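The numbers of the TCP list, which were not used as reads, were small along the nested fragments from base 1. They lay between 2 and 6 in the 10 A form sequences, between 1 and 3 in the 10 T form sequences, between 1 and 9 in the 9 nuclear sequences too short to tell the forms apart and between 2 and 4 in the 22 plastid-type sequences.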
